A study of Schizosaccharomyces pombe with 10 samples.

Results

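Camptothecin and phleomycin both damage DNA, by different routes, and their effects on the transcriptome of fission yeast were set directly against each other. The comparison rests on 4 of the 10 RNA-seq libraries of the series, 2 of cells given camptothecin at 20 µM for 8 h and 2 of cells given phleomycin at 5 µg/mL for 8 h, chosen by their treatment labels. All groups were Schizosaccharomyces pombe of strain PT286, grown at 30 °C in YES, a rich yeast extract medium, with 16 h of culture before the medium was changed and the agent was added. The untreated libraries are titled WT where the others carry the name of an agent. The labels give no further genotype beyond the strain name. The other groups, each of 2 libraries, were untreated cells, cells in hydroxyurea (10 mM, 8 h) and cells in methyl methanesulfonate (MMS, 0.02 %, 8 h). Of the 6661 features in the table of read counts, 5734 had enough reads to be tested, among them 4717 protein-coding genes and 1016 non-coding RNAs. Untreated levels are given beside those of the agents as a reference; whether the untreated cells were kept for the further 8 h is not stated in the labels.

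Topoisomerase I relaxes DNA by cutting 1 strand, turning it and sealing it. Camptothecin holds the enzyme on the DNA after the cut, and a replication fork that runs into the trapped complex can be converted into a broken end, so much of the damage falls in S phase. Phleomycin is a glycopeptide of the bleomycin family that binds a metal ion and, with iron and oxygen, attacks the sugar of DNA directly, leaving single-strand and double-strand breaks at any stage of the cell cycle. Broken ends are sensed by the checkpoint kinases Rad3 (ATR in mammals) and Tel1 (ATM), and are joined by homologous recombination or by end joining. Each agent was used at 1 dose and 1 time, so a difference between the agents cannot be told apart from a difference in how strongly each dose acted.

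Library totals ran from 37301356 to 48598533 counts over the 10 libraries. They were 48598533 and 38048836 with camptothecin and 39583110 and 44229428 with phleomycin. Levels are in CPM, counts per 1000000 counts of the library total after scaling with TMM factors, and log2 fold changes are camptothecin over phleomycin ± SE, so a negative value means a higher level with phleomycin. The camptothecin libraries lay at -18.8 and -19.9 and the phleomycin libraries at 31.8 and 32.0 on principal component 1, with 52.4 % of the variance. The 2 libraries of a group differed by more than counting noise (chi-square per feature 3.36 for camptothecin and 3.72 for phleomycin). Whether separate cultures lie behind them is not stated, so a p-value here may reflect technical spread only. No strand setting or annotation is given for the counting, so features that overlap others over 75 % or more of their span, or that have a near-identical copy, are marked as uncertain where they are named.

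Most of the transcriptome differed between the agents. Large differences were fewer and fell mostly on the phleomycin side, though less so at 10 CPM or more. At an adjusted p under 0.05 (edgeR quasi-likelihood test, Benjamini-Hochberg adjustment), 4590 features (80.0 % of those tested) differed. Of these, 2332 (40.7 %) were higher with camptothecin and 2258 (39.4 %) higher with phleomycin. Differences of 2-fold or more were found for 862 features (15.0 %), with 226 (3.94 %) higher with camptothecin and 636 (11.1 %) higher with phleomycin. Both camptothecin libraries lay on 1 side of both phleomycin libraries for all 226 of the former and for 635 of the latter. These features were selected for a difference between the same libraries, so the separation adds no support. Under quantile normalization the split was closer, at 359 and 407, so 46.9 % of the 2-fold differences were higher with camptothecin in place of 26.2 %. It was also closer among features with a mean of 10 CPM or more over the 10 libraries, a limit chosen after seeing the data. There 177 were at least 2-fold higher with camptothecin and 210 with phleomycin, 155 and 165 of them protein-coding. Among protein-coding genes 183 (3.88 %) were at least 2-fold higher with camptothecin and 297 (6.30 %) with phleomycin. Of the 4717 tested, 2171 were higher with camptothecin and 1698 with phleomycin at any size, with a median log2 fold change of 0.063. The gene lists below, apart from the non-coding RNAs, hold mainly protein-coding genes. For them these values are a closer background than those over all features.

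Set beside untreated cells, the 2-fold differences had several shapes. Of the 226 features higher with camptothecin, the untreated mean lay between the 2 agents for 120, below both for 44 and above both for 62. Of the 636 higher with phleomycin, it lay between the agents for 232, below both for 393 and above both for 11. Thus the untreated level was most often the lowest of these 3 groups for the 636, and between the agents for the 226. Against untreated cells, 4080 features (71.2 %) differed with camptothecin and 4755 (82.9 %) with phleomycin, 450 (7.85 %) and 1260 (22.0 %) of them by 2-fold or more; both comparisons use the same untreated libraries. Among the 6 pairs of agents in the series, camptothecin and phleomycin had the highest count of 2-fold differences, with 862. The other pairs ran from 353 (6.16 %) for hydroxyurea and phleomycin to 771 (13.4 %) for camptothecin and MMS, and pairs that share an agent share its libraries.

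**Figure D1:**
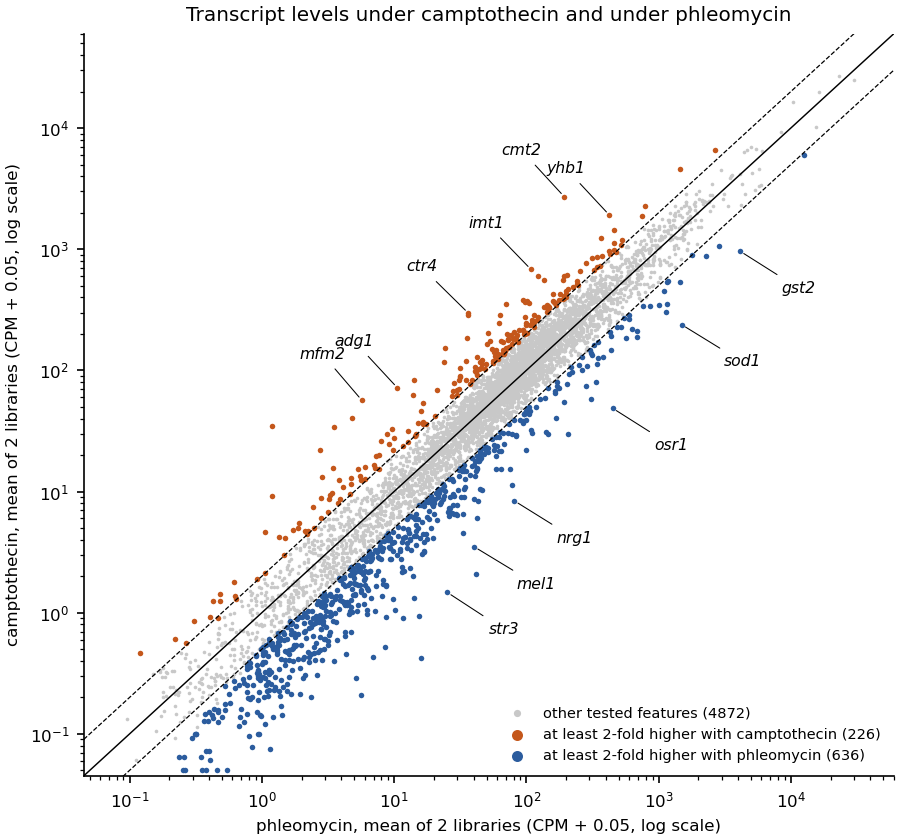
Mean level of each tested feature with phleomycin (x axis, CPM + 0.05, log scale) and with camptothecin (y axis, same scale), each the mean of 2 libraries. The solid line marks equal levels and the dashed lines 2-fold differences; 226 features in orange lie at least 2-fold above and 636 in blue at least 2-fold below, many of the latter at low levels.

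The genes with the largest excess under camptothecin were those of a catechol O-methyltransferase, copper uptake, a mating pheromone, cell separation and the cell surface. In bulk RNA, a change per cell and a change in the share of cells at a given stage cannot be told apart, here and for all genes below. The largest excess belonged to cmt2, annotated as a catechol O-methyltransferase. It stood at 2725 and 2713 CPM with camptothecin and 195 and 191 CPM with phleomycin, against 109 and 108 CPM in untreated cells. All 4 treated libraries were thus above the untreated ones, the camptothecin libraries far above, and the difference was 14.1-fold (log2 3.82 ± 0.020, adjusted p = 3.88e-80). In the other agents its mean was 121 CPM with hydroxyurea and 546 CPM with MMS.

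A second gene raised far above untreated cells by camptothecin was yhb1, whose product is a nitric oxide dioxygenase that detoxifies nitric oxide. Its level was 1929 and 1902 CPM with camptothecin, 419 and 429 CPM with phleomycin and 184 and 185.8 CPM untreated (log2 2.18 ± 0.019, adjusted p = 2.31e-68). Both agents raised it, camptothecin further. The sphingolipid gene imt1, for an inositol phosphorylceramide mannosyltransferase, followed another course, with 685 and 678 CPM with camptothecin, 107 and 109.5 CPM with phleomycin and 145 and 149.8 CPM untreated (log2 2.65 ± 0.026). Here camptothecin was above and phleomycin below untreated cells. The same order held for pun1, a membrane protein gene of the SUR7 family, with means of 286, 63.2 and 87.9 CPM in camptothecin, phleomycin and untreated cells (log2 2.18 ± 0.037). It held for omh1, a Golgi mannosyltransferase gene that adds sugars to secreted proteins (means 554, 136 and 245 CPM, log2 2.03 ± 0.026). It held as well for prz1, which encodes the transcription factor that calcineurin activates when calcium signals arrive (means 245, 61.8 and 118 CPM, log2 1.99 ± 0.036). For the adhesin family gene pfl2 the means were 205, 51.7 and 156 CPM (log2 1.99 ± 0.038).

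The M-factor pheromone precursor gene mfm2 was higher with camptothecin (55.9 and 57.4 CPM) than with phleomycin (5.31 and 6.0 CPM), with 15.5 and 14.9 CPM in untreated cells (log2 3.32 ± 0.099, adjusted p = 6.04e-39). The 2 agents lay on opposite sides of the untreated level. For the alanine racemase gene alr2 both agents lay below it, at 14.4 and 11.8 CPM with camptothecin, 2.49 and 3.10 CPM with phleomycin and 28.4 and 28.4 CPM untreated (log2 2.23 ± 0.14). Other features cover 63.7 % of the span of alr2.

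The genes with the largest excess under phleomycin took part in iron and haem uptake, sugar and nitrogen use, and oxidative defence. The siderophore transporter gene str3 stood at 1.47 and 1.36 CPM with camptothecin and 25.5 and 25.01 CPM with phleomycin, against 11.4 and 12.5 CPM in untreated cells (log2 -4.14 ± 0.094, adjusted p = 2.69e-45). The agents lay on either side of the untreated level, and the camptothecin libraries were close to 0. The melibiase gene mel1, for an enzyme that releases galactose from melibiose, had 3.27 and 3.62 CPM with camptothecin, 41.1 and 39.7 CPM with phleomycin and 1.04 and 1.26 CPM untreated (log2 -3.56 ± 0.11). A gene annotated as an amino-acid permease, nrg1, had 8.85 and 7.79, 82.3 and 80.3 and 5.41 and 5.01 CPM in the same order (log2 -3.28 ± 0.066). Both were low in camptothecin and untreated cells and far higher with phleomycin. The dehydrogenase gene osr1 rose with both agents and furthest with phleomycin, at 49.1 and 47.99 CPM with camptothecin, 448 and 453 CPM with phleomycin and 28.2 and 28.99 CPM untreated (log2 -3.21 ± 0.027, adjusted p = 3.29e-69).

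Further genes of this end were glutathione and salvage enzymes and transporters. The glutathione S-transferase gene gst2, for an enzyme that couples glutathione to reactive compounds, had 963 and 959 CPM with camptothecin, 4130.3 and 4159 CPM with phleomycin and 771 and 781 CPM untreated (log2 -2.11 ± 0.016, adjusted p = 7.10e-72). Its excess was 4.31-fold, and the camptothecin libraries lay only a little above the untreated ones. The uricase gene uro1 of purine breakdown had means of 22.01, 100.05 and 18.8 CPM with camptothecin, with phleomycin and untreated (log2 -2.19 ± 0.057). The meiotically named gene mug15, of unstated function here, had means of 6.06, 41.97 and 4.42 CPM (log2 -2.79 ± 0.094). In these 3 genes the camptothecin mean stayed nearer to untreated than the phleomycin mean did. The nicotinic acid transporter gene tna1, with means of 11.3, 77.3 and 19.4 CPM, was below untreated cells with camptothecin and above them with phleomycin (log2 -2.78 ± 0.068). The protein repair methyltransferase gene pcm2 had means of 1.95, 13.9 and 1.20 CPM (log2 -2.83 ± 0.17). The adhesin family gene pfl7, at 4.52, 33.2 and 26.6 CPM, was near its untreated level with phleomycin and below it with camptothecin (log2 -2.87 ± 0.10).

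**Figure D2:**
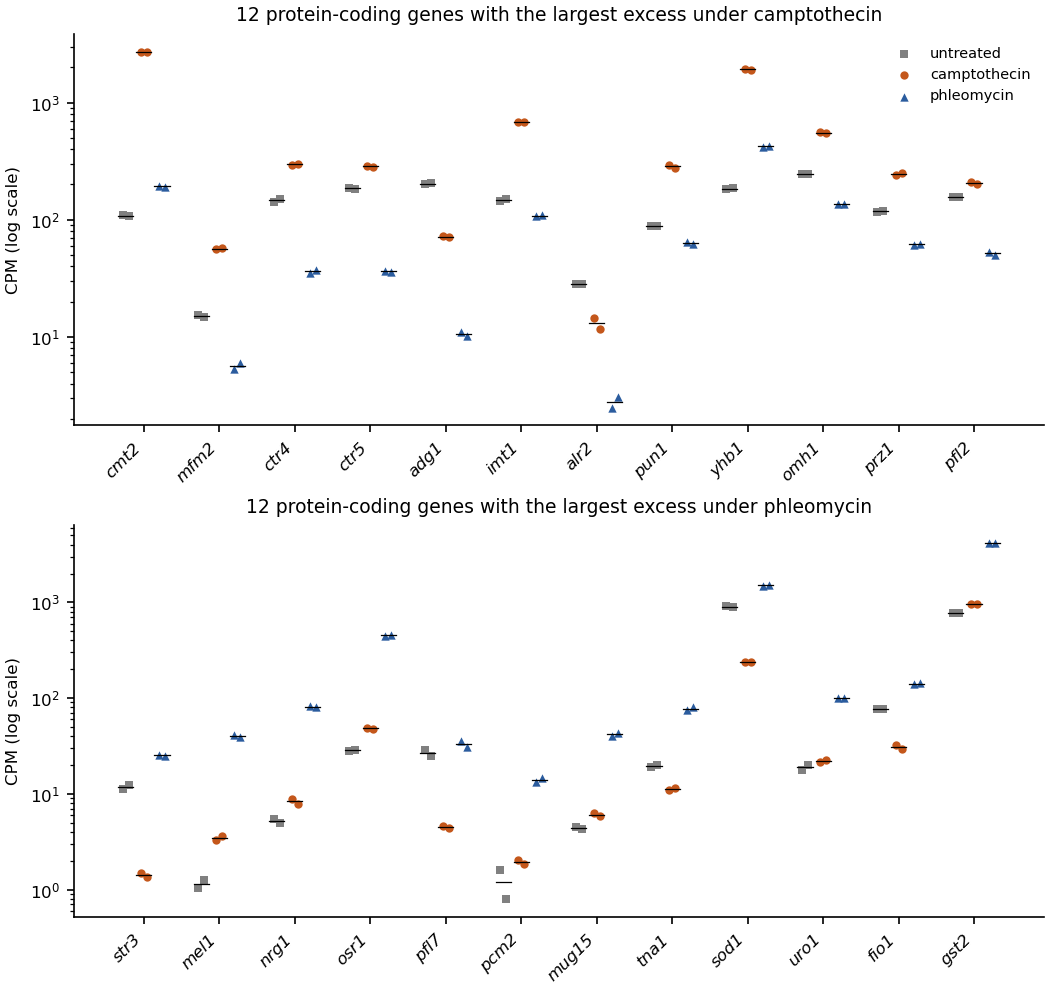
Level of the 12 protein-coding genes with the largest excess under camptothecin (upper panel) and under phleomycin (lower panel), in CPM on a log scale; each point is 1 library, squares untreated, circles camptothecin, triangles phleomycin, and short lines mark means of 2. Only genes in which the 2 agents do not overlap were eligible. The untreated level lies between the agents for some (ctr4, str3), below both for others (cmt2, gst2) and above both for adg1 and alr2.

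Copper uptake genes were higher with camptothecin, and the gene of a copper-using enzyme, sod1, was higher with phleomycin. Ctr4 and Ctr5 form the high-affinity copper transporter of the plasma membrane, whose genes the regulator Cuf1 switches on when copper is scarce. The gene ctr4 stood at 294 and 299.9 CPM with camptothecin, 35.3 and 37.5 CPM with phleomycin and 142 and 151 CPM untreated (log2 3.03 ± 0.035, adjusted p = 1.54e-61). Its partner ctr5 stood at 286 and 284, 36.7 and 35.96 and 187 and 183 CPM in the same order (log2 2.97 ± 0.034). Both were above untreated cells with camptothecin and below them with phleomycin. The opposite order was seen for sod1, the copper-zinc superoxide dismutase that removes superoxide, with 239.6 and 236 CPM with camptothecin, 1494 and 1508 CPM with phleomycin and 907 and 894 CPM untreated (log2 -2.66 ± 0.019, adjusted p = 4.19e-73). The chaperone gene ccs1, whose product loads copper onto Sod1, moved the same way as sod1, with means of 134, 246 and 166 CPM (log2 -0.87 ± 0.029). The vacuolar copper transporter gene ctr6 (log2 0.52 ± 0.038) and the regulator gene cuf1 (log2 0.45 ± 0.058) were modestly higher with camptothecin. Of 19 tested genes of copper, zinc and other metals, 11 were higher with camptothecin, 7 higher with phleomycin and 1 did not pass. Shares over all features were 40.7 % with camptothecin and 39.4 % with phleomycin. The median log2 fold change of the 19 genes, 0.075, was close to the 0.063 of all protein-coding genes, beside -0.0011 over all features. The median of the list was -0.019 with library totals alone and -0.082 under quantile normalization, so its sign changed with the scaling.

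Among iron genes, fio1, fip1 and str3 were higher with phleomycin and sib1, sib2, sib3 and frp1 with camptothecin. Fission yeast take up iron through a ferrous pathway, in which the oxidase Fio1 and the permease Fip1 act together, and through siderophores, small chelators such as ferrichrome that Sib1, Sib2 and Sib3 help to make and Str transporters import. The oxidase gene fio1 had 32.6 and 29.7 CPM with camptothecin, 140.4 and 143 CPM with phleomycin and 76.4 and 76.4 CPM untreated (log2 -2.18 ± 0.036, adjusted p = 4.83e-53). The permease gene fip1 had 10.6 and 10.4, 44.8 and 45.1 and 15.7 and 17.3 CPM (log2 -2.09 ± 0.062). Both genes, like str3, were below untreated cells with camptothecin and above them with phleomycin. The siderophore synthesis gene sib2, for the ornithine hydroxylase, was at 154 and 152 CPM with camptothecin, 71.3 and 70.2 CPM with phleomycin and 78.6 and 79.8 CPM untreated (log2 1.11 ± 0.038). The synthesis genes sib3 (0.67 ± 0.027) and sib1 (0.41 ± 0.018) and the ferric reductase gene frp1 (0.94 ± 0.032) were also higher with camptothecin on the log2 scale. Among the transporters, str1 (71.2 and 73.7 CPM, adjusted p = 0.141) and str2 (54.5 and 52.4 CPM, adjusted p = 0.281) did not pass. Nor did fep1, the gene of the GATA factor that represses iron uptake (62.7 and 60.7 CPM, adjusted p = 0.321). Over the 22 tested iron and haem genes, 9 were higher with each agent and 4 did not pass, close to the shares over all features (40.7 % and 39.4 %). By 2-fold or more, 1 of the 22 was higher with camptothecin and 5 with phleomycin, against 3.88 % and 6.30 % of protein-coding genes. The median of the 22 was 0.053. It was 0.017 without replicate 1 of camptothecin, -0.040 with library totals alone and -0.013 under quantile normalization.

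Among oxidative defence genes, tpx1, bcp1, sod1 and sod2 were higher with phleomycin, and yhb1 and gst3 with camptothecin. Of 33 tested genes of oxidative stress and thiol redox control, 14 were higher with camptothecin, 17 higher with phleomycin and 2 did not pass; 2 and 7 of them differed by 2-fold or more. Over all features 40.7 % were higher with camptothecin and 39.4 % with phleomycin. The count on the camptothecin side was near this background, and that on the phleomycin side was above it. The peroxiredoxin gene tpx1, for an abundant peroxide scavenger and sensor, had means of 1069 ± 4.66 CPM with camptothecin, 2859 ± 1.81 CPM with phleomycin and 953 ± 6.22 CPM untreated (log2 -1.42 ± 0.016, SD over 2 libraries). The second peroxiredoxin gene bcp1 had means of 113 ± 0.457, 343 ± 6.95 and 80.9 ± 0.589 CPM (log2 -1.60 ± 0.029). Phleomycin raised both genes above untreated cells by more than camptothecin did. The quinone reductase gene zta1 (-1.41), the mitochondrial superoxide dismutase gene sod2 (-0.67) and the glutathione reductase gene pgr1 (-0.65) were also higher with phleomycin on the log2 scale. Higher with camptothecin, besides yhb1, were the glutathione S-transferase gene gst3, at 449 and 199 CPM (1.18 ± 0.024), and the regulator gene prr1 (0.66 ± 0.026). The catalase gene ctt1 differed little (553 and 562 CPM with camptothecin, 482 and 505 CPM with phleomycin, log2 0.18 ± 0.020). The gene of the redox-sensitive factor Pap1 differed by 0.12 ± 0.028, a sign that turned under quantile normalization.

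Of 39 tested genes of cell separation and the septum, 29 were higher with camptothecin, 12 of them by 2-fold or more, 2 were higher with phleomycin and 8 did not pass. For all features the shares were 40.7 % with camptothecin, 3.94 % by 2-fold or more, and 39.4 % with phleomycin. After mitosis fission yeast build a septum of glucans made by the synthases Bgs1, Bgs3, Bgs4 and Ags1. The daughters are then freed by the glucanases Eng1 and Agn1 and by proteins such as Adg1, Adg2 and Adg3. The gene adg1 had 71.99 and 71.7 CPM with camptothecin, 10.96 and 10.1 CPM with phleomycin and 200.3 and 206 CPM untreated (log2 2.77 ± 0.057, adjusted p = 1.33e-47). The α-glucanase gene agn1 had 134 and 125, 43.9 and 40.7 and 279.8 and 279 CPM (log2 1.62 ± 0.040). For the further separation genes adg2 (78.9, 28.3 and 138 CPM), adg3 (147, 58.7 and 278 CPM) and eng1 (67.9, 27.98 and 128 CPM) the means fell into the same order. All 5 separation genes were lower than untreated with both agents, and lowest with phleomycin. The synthase genes had another shape: bgs3 was at 602 and 589.6 CPM with camptothecin, 187 and 199.96 CPM with phleomycin and 412 and 412 CPM untreated (log2 1.62 ± 0.024). The synthase genes bgs1 (1.28), bgs4 (1.28) and ags1 (0.95) differed in the same direction, their phleomycin means of 136, 462 and 412 CPM lying below untreated means of 281, 1028 and 774 CPM. The median of the 39 was 0.32 against -0.0011 over all features and 0.063 over protein-coding genes. The ring and septation signalling genes cdc15 (log2 -0.0092 ± 0.030, adjusted p = 0.781) and sid2 (log2 0.0051 ± 0.030, adjusted p = 0.882) were among the 8.

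Histone genes were the list with the highest median. Histones package DNA, and the genes of the replication-dependent forms are expressed in S phase. The histone H3 gene hht1 had 607 and 615 CPM with camptothecin, 201 and 204 CPM with phleomycin and 1020.2 and 1034 CPM untreated (log2 1.59 ± 0.020, adjusted p = 3.44e-59). The H4 gene hhf1 had 849.9 and 863, 342 and 339.7 and 1309.97 and 1308 CPM (log2 1.33 ± 0.018). Both agents gave less than untreated cells, phleomycin least. The H3 gene hht3 (1.21 ± 0.024) and the H2A gene hta2 (1.10 ± 0.024) differed by at least 2-fold, and htb1 (0.87 ± 0.017) and hhf2 (0.68 ± 0.021) by less. Of 9 tested histone genes 8 were higher with camptothecin and none with phleomycin, with a median of 0.87. The exception was cnp1, the centromeric H3 variant gene, with 36.03 and 36.7 CPM (adjusted p = 0.723). The same direction and count held under each of the scalings tried. As background, 40.7 % of all features were higher with camptothecin and 39.4 % with phleomycin.

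**Figure D3:**
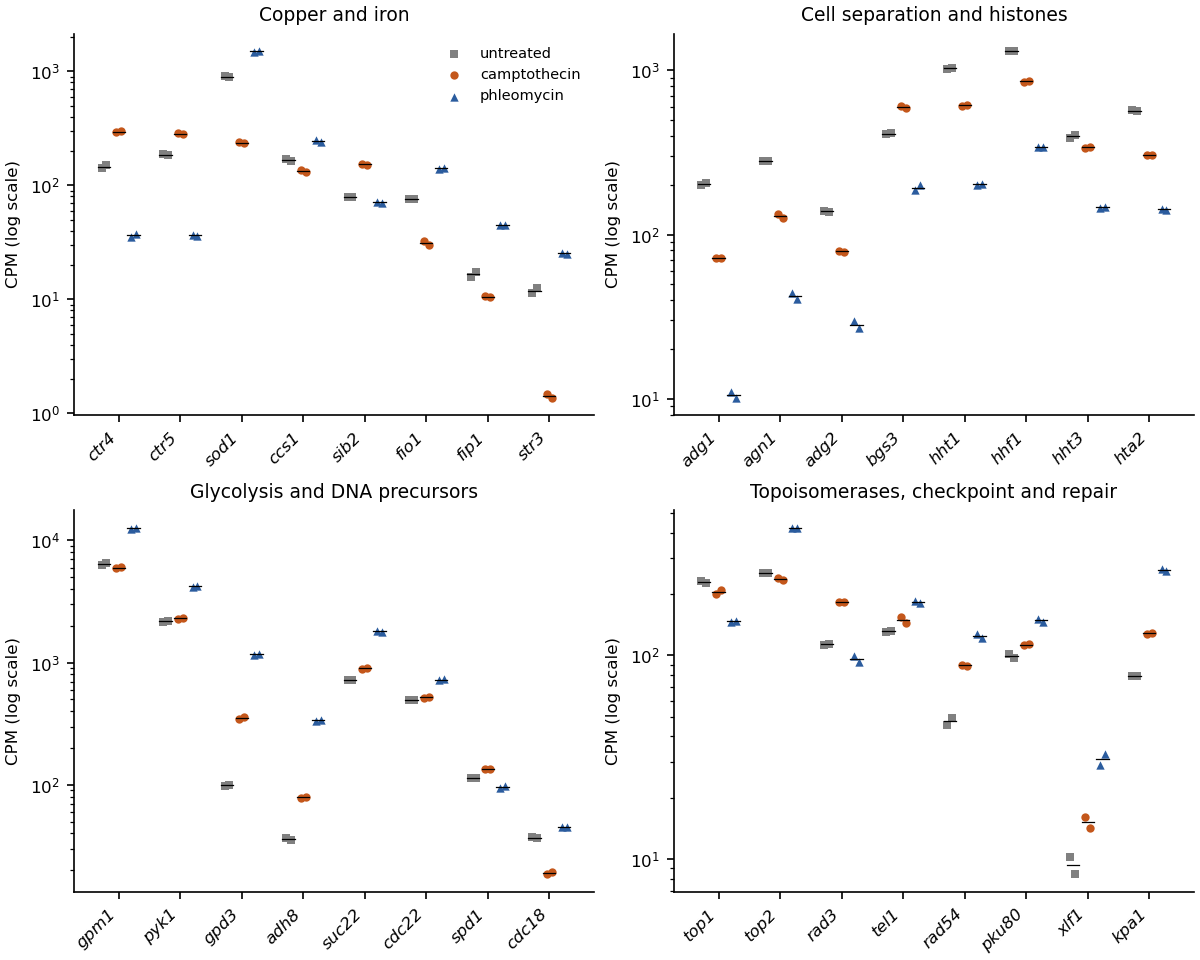
Level of 32 genes in 4 groups, in CPM on a log scale, with 1 point per library (squares untreated, circles camptothecin, triangles phleomycin) and short lines at the means of 2. Copper uptake genes and sod1 change places between the agents, separation and histone genes are lowest with phleomycin, and gpd3, adh8, suc22, kpa1 and xlf1 climb from untreated through camptothecin to phleomycin.

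The genes of topoisomerases I and II, and the genes named here that clear trapped topoisomerase, differed by less than 2-fold. The gene top1 of topoisomerase I, the enzyme camptothecin traps, had 199.5 and 210.05 CPM with camptothecin, 146 and 148 CPM with phleomycin and 233 and 227 CPM untreated (log2 0.48 ± 0.030, adjusted p = 2.95e-22). The gene top2 of topoisomerase II, which passes 1 duplex through another, had 239 and 233, 420.2 and 425 and 255 and 253 CPM (log2 -0.84 ± 0.023, adjusted p = 3.29e-41). So top1 was lower and top2 higher with phleomycin than in camptothecin-treated or untreated cells. The gene tdp1, for the phosphodiesterase that removes the enzyme from the DNA end, had 14.6 and 14.7 against 11.4 and 12.8 CPM (log2 0.27 ± 0.12, adjusted p = 0.0337), but other features cover 79.3 % of it and its value is uncertain. The call is lost with library totals alone (adjusted p = 0.156), with the DESeq2 Wald test (0.0683), with a replicate block (0.127) and without either camptothecin library or replicate 1 of phleomycin (0.077 to 0.214). The structure-cutting nuclease genes rad16 (XPF in mammals, log2 -0.79 ± 0.036) and mus81 (-0.50 ± 0.054) were higher with phleomycin. Of 20 tested genes of this list, 4 were higher with camptothecin, 12 with phleomycin and 4 did not pass, median -0.20. The all-feature shares were 40.7 % with camptothecin and 39.4 % with phleomycin. By 2-fold or more, 0 of the 20 were higher with camptothecin and 3 with phleomycin, against 3.88 % and 6.30 % of protein-coding genes. Under quantile normalization the 2-fold counts were 1 and 1.

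Among genes of double-strand break repair, those of end joining were more often higher with phleomycin, and differences were mostly under 2-fold. End joining ligates broken ends held by the Ku proteins. Of its 8 tested genes 5 were higher with phleomycin, none with camptothecin, and 3 did not pass, median -0.25. Among all features 39.4 % were higher with phleomycin and 40.7 % with camptothecin. The XRCC4-like factor gene xlf1 had 16.03 and 14.3 CPM with camptothecin, 28.97 and 32.8 CPM with phleomycin and 10.3 and 8.41 CPM untreated (log2 -1.03 ± 0.091, adjusted p = 6.68e-16). The Ku gene pku80 had 112 and 114, 151 and 146 and 102 and 97.6 CPM (log2 -0.39 ± 0.036), and the ligase gene lig4 differed by -0.29 ± 0.045. Its partner pku70 (13.3 and 12.97 against 11.1 and 12.7 CPM, adjusted p = 0.238), and the nuclease complex genes rad50 (132 and 129 against 126 and 127 CPM, adjusted p = 0.188) and mre11 (45.6 and 46.7 against 52.2 and 47.5 CPM, adjusted p = 0.0595), did not pass. The gene mre11 passed, as higher with phleomycin, with library totals alone (adjusted p = 0.000695), under quantile normalization (0.0483), with the 4 libraries alone (0.0481) and without replicate 2 of phleomycin (0.0139). Under quantile normalization pku70 passed too, as higher with camptothecin (0.00148). Under quantile normalization rad50 was lower with camptothecin, by -0.12 on the log2 scale.

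In homologous recombination, which copies the missing sequence from a sister chromatid, 7 of 28 tested genes were higher with camptothecin, 12 with phleomycin and 9 did not pass, and none differed by 2-fold. Over all features 40.7 % and 39.4 % were higher with camptothecin and with phleomycin. The count on the phleomycin side was near this background, and that on the camptothecin side was below it. The median of -0.099 was -0.051 without replicate 2 of phleomycin, -0.035 with no filter on low counts and -0.19 with library totals alone. The translocase gene rad54 had 90.1 and 89.2 CPM with camptothecin, 127 and 122 CPM with phleomycin and 45.6 and 49.2 CPM untreated (log2 -0.47 ± 0.038, adjusted p = 8.81e-18). Both agents raised it, phleomycin further. The Shu complex gene sws1 (-0.77 ± 0.054) was also higher with phleomycin, whereas the end resection exonuclease gene exo1, at 75.3 and 78.1 against 48.6 and 49.9 CPM, was higher with camptothecin (0.64 ± 0.050). The mediator gene rad52 did not pass (11.8 and 10.99 against 10.6 and 10.1 CPM, adjusted p = 0.237) and is uncertain because other features cover 77.1 % of it; it passed under quantile normalization (0.00204).

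Translesion synthesis copies past damaged bases with specialised polymerases, and PCNA ubiquitination calls them in. Of 12 tested genes of this list 8 were higher with phleomycin, none with camptothecin, and 4 did not pass, median -0.36. As background here and for base excision repair below, 40.7 % of all features were higher with camptothecin and 39.4 % with phleomycin. The polymerase kappa gene kpa1 had 128 and 129.6 CPM with camptothecin, 267 and 261 CPM with phleomycin and 79.5 and 79.6 CPM untreated (log2 -1.04 ± 0.028, adjusted p = 7.75e-41). The ubiquitin-conjugating enzyme gene mms2, at 54.95 and 52.7, 98.6 and 97.4 and 30.1 and 30.8 CPM, followed it (log2 -0.86 ± 0.047). Both genes rose with each agent and furthest with phleomycin. The polymerase zeta gene rev7 was higher too, from a low level (5.12 and 4.87 against 15.3 and 15.01 CPM, log2 -1.60 ± 0.15). Base excision repair genes had a median of 0.063, which was -0.030 with library totals alone and 0.12 with no filter on low counts, and ran from 0.011 to 0.10 with each library left out, lowest without replicate 1 of phleomycin. They had 4 higher with camptothecin, 6 with phleomycin and 3 not passing of 13. Its uracil glycosylase gene thp1 (-0.34 ± 0.031) and end-processing kinase-phosphatase gene pnk1 (-0.48 ± 0.094) were higher with phleomycin and its endonuclease gene apn2 (0.57 ± 0.082) with camptothecin.

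The 2 sensor kinases of the checkpoint differed in opposite directions. The gene rad3, for the kinase that responds to single-stranded DNA at forks and resected ends, had 183 and 183 CPM with camptothecin, 99.3 and 93.03 CPM with phleomycin and 113 and 114 CPM untreated (log2 0.93 ± 0.037, adjusted p = 6.06e-32). The gene tel1, for the kinase that responds to unresected breaks, had 155 and 145, 185 and 181 and 131 and 131 CPM (log2 -0.29 ± 0.031, adjusted p = 1.16e-12). Of these 3 groups rad3 was highest with camptothecin and tel1 with phleomycin, while hydroxyurea gave 216 CPM of tel1. Other features cover 66.3 % of rad3. The effector kinase genes cds1, at 57.9 and 54.3 against 49.9 and 48.4 CPM (0.19 ± 0.050), and chk1, at 29.5 and 29.1 against 39.98 and 39.5 CPM (-0.44 ± 0.065), also went opposite ways by small amounts; the call of cds1 is lost with library totals alone (adjusted p = 0.0701). The mediator gene crb2 did not pass (54.9 and 54.98 against 54.1 and 55.2 CPM, adjusted p = 0.902). The mitotic inhibitor gene wee1, for the kinase that holds back Cdc2, was higher with camptothecin (49.3 and 50.7 against 25.01 and 27.6 CPM, 0.92 ± 0.062), while the 14-3-3 gene rad25 (-0.61 ± 0.020) and the chromatin adaptor gene mdb1 (-0.91 ± 0.043) were higher with phleomycin. Of 20 tested checkpoint genes 7 were higher with camptothecin, 9 with phleomycin and 4 did not pass. Among all features 40.7 % were higher with camptothecin and 39.4 % with phleomycin. The checkpoint median of 0.0030 was -0.091 with library totals alone and -0.073 under quantile normalization. It changed sign without either camptothecin library or replicate 1 of phleomycin.

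Of 28 tested MBF-regulated genes 4 were higher with camptothecin, 19 with phleomycin and 5 did not pass, median -0.27. Of 9 tested genes of ribonucleotide reductase and Spd1 degradation 3 were higher with camptothecin, 5 with phleomycin and 1 did not pass. The background for both lists was 40.7 % of all features higher with camptothecin and 39.4 % with phleomycin. The transcription factor MBF switches on genes needed to enter S phase, among them cdc18, whose product loads the replicative helicase, and the ribonucleotide reductase genes. The gene cdc18 had 18.5 and 19.3 CPM with camptothecin, 45.2 and 45.1 CPM with phleomycin and 37.3 and 36.8 CPM untreated (log2 -1.26 ± 0.059, adjusted p = 1.53e-28). It was below untreated cells with camptothecin and above them with phleomycin. The reductase small subunit gene suc22 had 889 and 902 CPM with camptothecin, 1803 and 1795 CPM with phleomycin and 717 and 717 CPM untreated (log2 -1.01 ± 0.017, adjusted p = 6.51e-53). The large subunit gene cdc22 had 509 and 528, 725 and 729 and 494 and 498 CPM (log2 -0.49 ± 0.019). For both subunits the camptothecin level was nearer to untreated than the phleomycin level was. The inhibitor gene spd1 went the other way, at 135 and 135 CPM with camptothecin, 94.7 and 98.7 CPM with phleomycin and 114 and 114 CPM untreated (log2 0.48 ± 0.037). The related inhibitor gene spd2 (-0.95 ± 0.038) was higher with phleomycin. Of the ubiquitin ligase that destroys Spd1, the receptor gene cdt2 (-0.70 ± 0.040) was higher with phleomycin and the scaffold gene cul4 (0.94 ± 0.034) with camptothecin. The MBF list also held srw1, an activator of the mitotic ubiquitin ligase in G1 (-0.98 ± 0.055), the repressor gene whi5 (-0.83 ± 0.12) and the Cdc2 inhibitor kinase gene mik1 (-0.54 ± 0.052), all higher with phleomycin.

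Glycolytic genes were almost uniformly higher with phleomycin. Of 20 tested genes of this list, which holds glycolysis, fermentation and the pentose phosphate branch, 18 were higher with phleomycin, 1 with camptothecin and 1 did not pass, median -0.61. This stands beside 39.4 % of all features higher with phleomycin and 40.7 % with camptothecin. The phosphoglycerate mutase gene gpm1 had 5915 and 6033 CPM with camptothecin, 12451 and 12742 CPM with phleomycin and 6288 and 6485 CPM untreated (log2 -1.08 ± 0.016, adjusted p = 1.17e-55). The pyruvate kinase gene pyk1 had 2287 and 2311, 4177 and 4248 and 2152 and 2198 CPM (log2 -0.87 ± 0.016). In both genes camptothecin stood near the untreated level and phleomycin well above it. The second glyceraldehyde phosphate dehydrogenase gene, gpd3, had 345 and 356 CPM with camptothecin, 1148 and 1187 CPM with phleomycin and 97.6 and 100.3 CPM untreated (log2 -1.74 ± 0.020). The alcohol dehydrogenase gene adh8 had 78.7 and 80.2, 333 and 341 and 36.7 and 35.6 CPM (log2 -2.09 ± 0.030). These genes rose with both agents, phleomycin furthest. The gene higher with camptothecin was gnd1, for phosphogluconate dehydrogenase of the pentose phosphate branch (0.36 ± 0.016).

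Unlike most glycolytic genes, a pair of hexose transporter genes were higher with camptothecin. They were ght5, at 712, 343 and 1075 CPM with camptothecin, with phleomycin and untreated, and ght8, at 916, 432 and 1044 CPM (log2 1.05 ± 0.020 and 1.09 ± 0.019). Both fell below untreated cells, furthest with phleomycin. The invertase gene inv1 (1.14 ± 0.025), the maltase gene mal1 (1.32 ± 0.037) and cgs1, for the inhibitory subunit of protein kinase A (1.21 ± 0.019), were higher with camptothecin too. The hexitol dehydrogenase gene tms1 (71.9 and 72.1 against 177 and 178 CPM, -1.30 ± 0.035) and mel1 were higher with phleomycin. In all, 17 of 33 tested hexose transporter and glucose-repressed genes were higher with camptothecin, 14 with phleomycin and 2 did not pass, median 0.11. The shares over all features were 40.7 % with camptothecin and 39.4 % with phleomycin.

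Respiration, amino acid and proteasome genes leaned to phleomycin, where 40.7 % of all features were higher with camptothecin and 39.4 % with phleomycin. Of 52 tested nuclear genes of the respiratory chain and citrate cycle, 14 were higher with camptothecin and 34 with phleomycin, median -0.25; examples were the isocitrate dehydrogenase genes idp1, at 534 and 542 against 992 and 989 CPM (-0.88 ± 0.018), and idh2 (-0.84 ± 0.026). Of 71 tested genes of amino acid and sulphur metabolism, 21 were higher with camptothecin and 41 with phleomycin, median -0.31. The leading members were enzymes of arginine and glutamate turnover. The arginase gene car1 had 30.7 and 30.2 CPM with camptothecin, 109.6 and 112 CPM with phleomycin and 38.2 and 37.4 CPM untreated (log2 -1.87 ± 0.048). The glutamate dehydrogenase gene gdh2 had 147 and 150.1, 434 and 435 and 181 and 179 CPM (log2 -1.55 ± 0.023), and the argininosuccinate synthase gene arg12 had 349 and 346, 1007 and 998 and 439 and 435 CPM (log2 -1.53 ± 0.019). All 3 were somewhat below untreated cells with camptothecin and well above them with phleomycin. The sulphate transporter gene sul2 was higher with camptothecin (113 and 111 against 45.4 and 46.3 CPM, 1.29 ± 0.039), though both agents lay below the untreated 344 and 355 CPM. Of 48 tested proteasome and ubiquitin genes 10 were higher with camptothecin and 33 with phleomycin, median -0.24. The core particle genes pre4 (722 and 748 against 1177 and 1204 CPM, -0.70 ± 0.018), pre3 (-0.63 ± 0.023) and pre6 (-0.62 ± 0.023) led among those with certain values.

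Ribosomal protein and ribosome biogenesis genes were more often higher with camptothecin than with phleomycin. Across all tested features the shares were 40.7 % with camptothecin and 39.4 % with phleomycin. Of 117 tested cytosolic ribosomal protein genes 99 were higher with camptothecin, 8 with phleomycin and 10 did not pass, median 0.31. The ribosomal stalk gene rpp0 had 1194 and 1209 CPM with camptothecin, 530.1 and 524 CPM with phleomycin and 1244 and 1276 CPM untreated (log2 1.19 ± 0.018, adjusted p = 2.82e-55). The small subunit gene rps2202 had 520.1 and 513, 242 and 237 and 806 and 808 CPM (log2 1.11 ± 0.021). The phleomycin libraries were the lowest of the 3 groups in both. Many ribosomal protein genes are near-identical pairs, such as rpl301 (1.33 ± 0.018) and rpl302 (1.37 ± 0.022), whose reads may be split between them. Under quantile normalization the counts were 79 and 26 and the median 0.20. Of 102 tested ribosome biogenesis genes 63 were higher with camptothecin, 24 with phleomycin and 15 did not pass, median 0.20. Among them the H/ACA snoRNP gene nhp2 had 733 and 734, 365 and 361 and 727 and 736 CPM in camptothecin, phleomycin and untreated cells (log2 1.01 ± 0.019), and rix7, an AAA ATPase gene of large subunit assembly, was higher with phleomycin (-1.22 ± 0.079).

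Core stress genes were more often higher with camptothecin, though by modest amounts. The kinase Sty1 and the factor Atf1 drive a common response of fission yeast to many stresses. Of 35 tested genes of this response 25 were higher with camptothecin, 2 of them by 2-fold, 9 were higher with phleomycin and 1 did not pass, median 0.35. The calcium/calmodulin-dependent kinase gene cmk1 had 190.2 and 185.8 CPM with camptothecin, 82.8 and 83.3 CPM with phleomycin and 115 and 122 CPM untreated (log2 1.18 ± 0.035). The phosphatase gene pyp1, a brake on Sty1, had 84.5 and 91.3, 46.4 and 47.96 and 120.1 and 116 CPM (log2 0.90 ± 0.046), and atf1 itself differed by 0.76 ± 0.029. Against untreated cells camptothecin raised cmk1 but not pyp1, and phleomycin lay below untreated in both. Of 29 tested heat shock and chaperone genes 16 were higher with camptothecin, 8 with phleomycin and 5 did not pass. For both lists, the shares over all features were 40.7 % with camptothecin and 39.4 % with phleomycin. The chaperone genes hsp104 (1427 and 1454 against 832 and 826 CPM, 0.80 ± 0.017), ssa2 (0.83 ± 0.016) and hsp90 (0.67 ± 0.017) were higher with camptothecin. The median of that list was 0.075, or -0.019 with library totals alone.

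Multidrug transporters divided by member. Of 13 tested genes 8 were higher with camptothecin, 4 with phleomycin and 1 did not pass, median 0.40. As background here and for lipid synthesis below, 40.7 % of all features were higher with camptothecin and 39.4 % with phleomycin. The major facilitator gene mfs1 had 253 and 245 CPM with camptothecin, 115 and 115 CPM with phleomycin and 88.7 and 88.5 CPM untreated (log2 1.12 ± 0.032). The ABC transporter gene abc1 had 229 and 229, 518 and 516 and 153 and 148 CPM (log2 -1.17 ± 0.021), and the spermine family transporter gene caf5 had 37.6 and 38.4, 92.2 and 95.6 and 34.03 and 35.9 CPM (log2 -1.31 ± 0.039). So mfs1 rose chiefly with camptothecin, and abc1 and caf5 chiefly with phleomycin. In lipid synthesis, where 17 of 33 tested genes were higher with camptothecin and 14 with phleomycin, the squalene monooxygenase gene erg1 was higher with camptothecin (317 and 315 against 167 and 166 CPM, 0.93 ± 0.029) and the sterol isomerase gene erg2 with phleomycin (301 and 304 against 502 and 497 CPM, -0.72 ± 0.022).

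Of 53 tested mating and meiosis genes 18 were higher with camptothecin, 26 with phleomycin and 9 did not pass. Background shares over all features were 40.7 % with camptothecin and 39.4 % with phleomycin. The median of the 53 was -0.22. It was -0.064 without replicate 2 of phleomycin and -0.036 with no filter on low counts, and turned to 0.073 under quantile normalization. The pheromone response genes ste11, for the master factor of sexual differentiation (90.8, 42.4 and 47.8 CPM with camptothecin, with phleomycin and untreated, 1.10 ± 0.054), gpa1, for the G protein subunit that signals from the receptor (122, 46.3 and 45.96 CPM, 1.40 ± 0.048), and mam2, for the pheromone receptor (136, 67.7 and 53.9 CPM, 1.01 ± 0.043), were higher with camptothecin. Higher with phleomycin were the meiotic cohesin genes rec8 (16.6, 33.5 and 13.9 CPM, -1.01 ± 0.081) and rec11 (12.7, 34.2 and 12.7 CPM, -1.43 ± 0.087), both near untreated with camptothecin. The meiotic RNA-binding protein gene spo5, at 6.95, 25.8 and 4.40 CPM (-1.90 ± 0.12), was higher with phleomycin as well. The P-factor pheromone gene map2, at 4.06 and 4.40 against 14.97 and 14.2 CPM, was higher with phleomycin, unlike mfm2 of the M-factor (-1.79 ± 0.13).

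**Figure D4:**
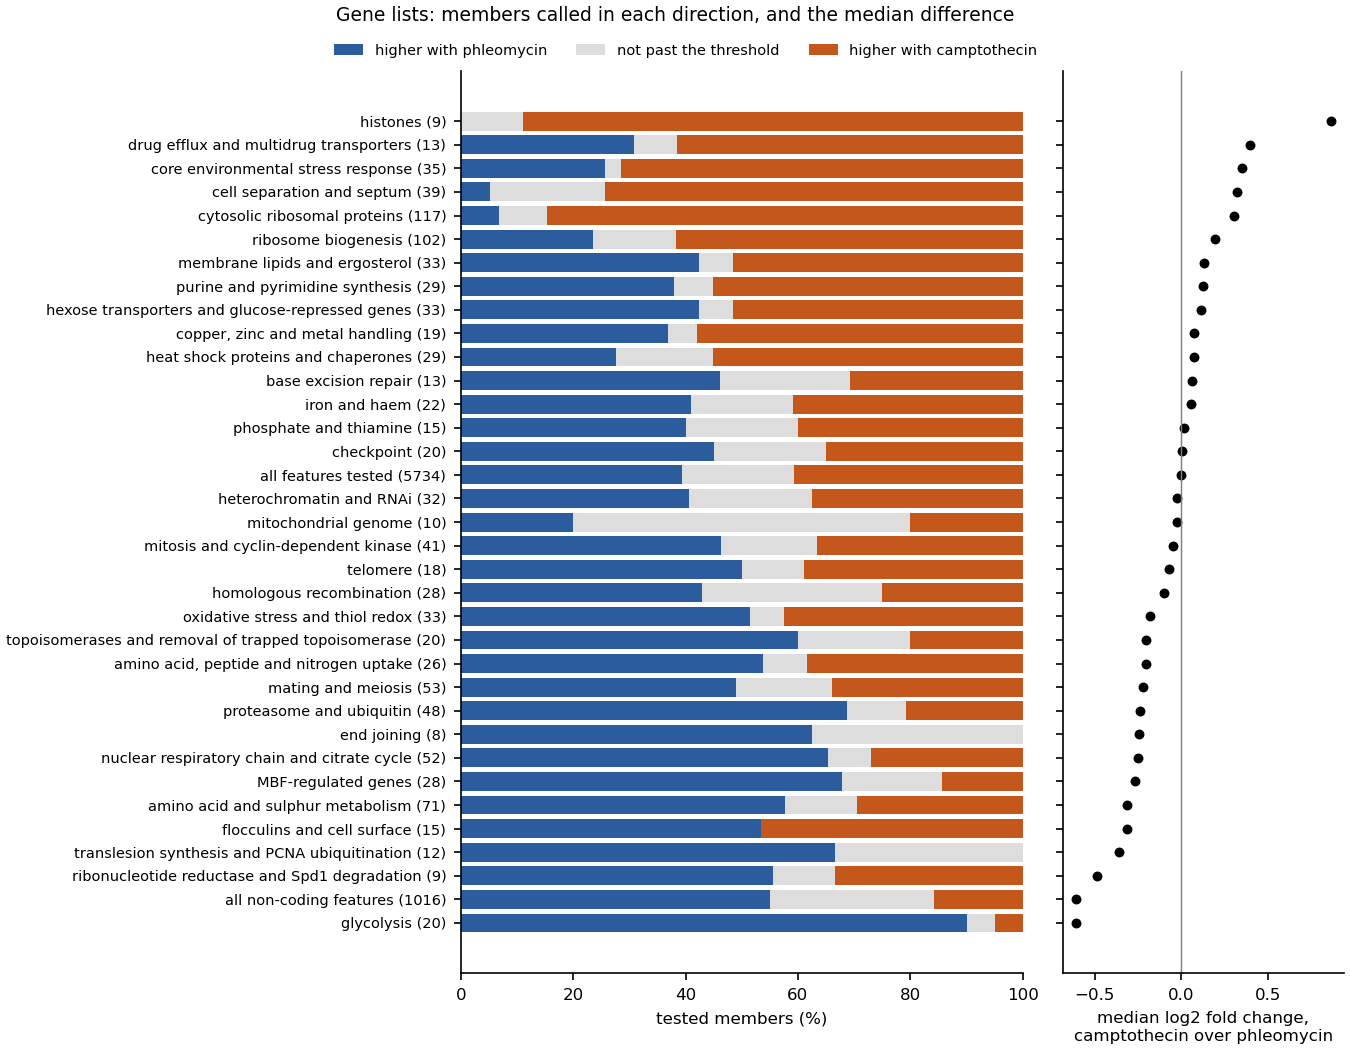
For each gene list with 8 or more tested members (number in brackets), the percentage called higher with phleomycin (blue), not past the threshold (grey) and higher with camptothecin (orange), with the median log2 fold change, camptothecin over phleomycin, at the right. Histones head the order at a median of 0.87 and glycolysis ends it at -0.61, beside -0.0011 for all 5734 features.

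Non-coding RNAs differed by 2-fold or more in a larger share than protein-coding genes did, also at 10 CPM or more. At that mean level over the 10 libraries, 22 of 273 non-coding features were at least 2-fold higher with camptothecin and 44 with phleomycin. Among 4202 protein-coding features of that level the counts were 155 and 165. Most of the 2-fold differences of non-coding RNAs lay below that level. Of 1016 non-coding RNAs tested, 161 (15.8 %) were higher with camptothecin and 559 (55.0 %) with phleomycin. By 2-fold or more, 43 (4.23 %) were higher with camptothecin and 338 (33.3 %) with phleomycin. After TMM scaling, low protein-coding genes leaned the same way, but under quantile normalization they did not. Among features with a mean under 1 CPM over the 10 libraries, the median was -1.14 for 230 non-coding and -0.82 for 111 protein-coding features. Between 1 and 10 CPM the medians were -0.66 and -0.23, and at 10 CPM or more they were -0.18 for 273 non-coding and 0.084 for 4202 protein-coding features. With that scaling the excess with phleomycin was larger at lower levels in both classes. Quantile normalization, which forces each library to 1 distribution of values, left 274 non-coding features higher with camptothecin and 334 with phleomycin, with a median of -0.078. Under 1 CPM its medians were -0.10 for non-coding and 0.35 for protein-coding features, between 1 and 10 CPM they were -0.12 and 0.25, and at 10 CPM or more 0.0096 and 0.031. So low protein-coding genes were on balance higher with camptothecin under quantile normalization, the reverse of the TMM result. Whether the lean of low features is in the cells or in the libraries was not tested.

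**Figure D5:**
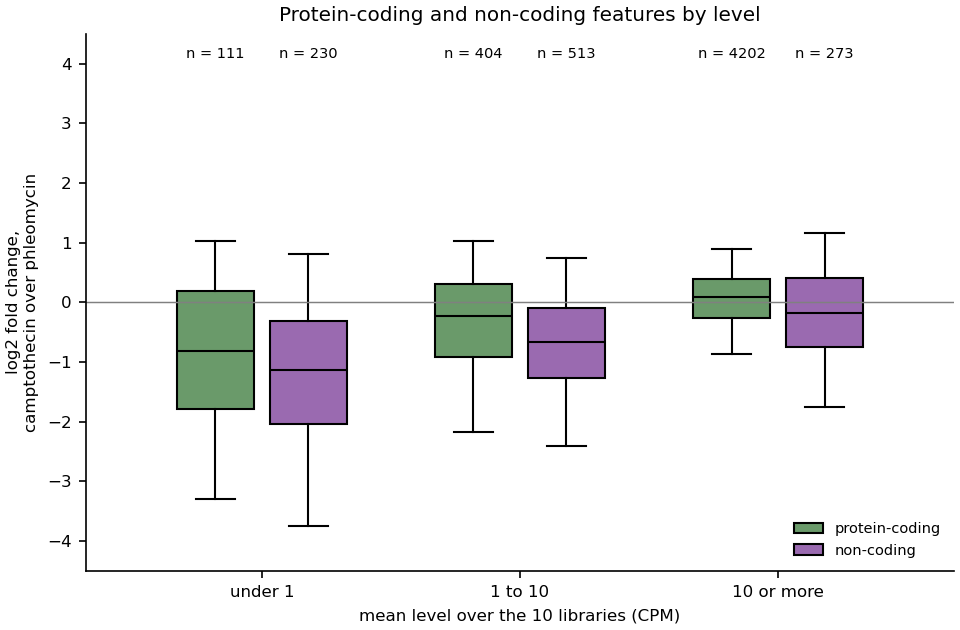
Log2 fold change, camptothecin over phleomycin, of protein-coding (green) and non-coding (purple) features in 3 ranges of mean level over the 10 libraries; boxes span the 25th to the 75th percentile with the median as a line, and whiskers run from the 5th to the 95th percentile. After TMM scaling, medians move from -0.82 and -1.14 under 1 CPM to 0.084 and -0.18 at 10 CPM or more.

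Despite that lean, non-coding features took a larger share of all counts with camptothecin (8.60 and 8.68 %) than with phleomycin (7.32 and 7.35 %) or in untreated cells (6.18 and 6.23 %). The 8 features with the largest difference in CPM made up the excess: the summed level of all tested non-coding features was 91280 CPM with camptothecin and 72598 CPM with phleomycin, and without these 8 it was 10345 and 11600 CPM. They include abundant structural RNAs. The RNA of ribonuclease P, rrk1, which matures tRNA, had 16029 and 16841 CPM with camptothecin, 10035 and 10554 CPM with phleomycin and 10114 and 10423 CPM untreated (log2 0.67 ± 0.019). The signal recognition particle RNA srp7 had 6469.8 and 6812, 4503 and 4766 and 3009 and 3137 CPM (log2 0.52 ± 0.022), and the ribonuclease MRP RNA mrp1, which acts in rRNA maturation, had 19899 and 19872, 16310.3 and 16291 and 13473 and 13658 CPM (log2 0.29 ± 0.013). The RNA prl53 showed the largest ratio of the abundant ones, at 6579 and 6532 CPM with camptothecin, 2659 and 2671 CPM with phleomycin and 3025 and 3031 CPM untreated (log2 1.30 ± 0.015, adjusted p = 9.66e-62). For rrk1 and prl53 phleomycin stayed close to untreated cells and camptothecin was above. These RNAs were chosen after their values were seen.

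Among less abundant non-coding RNAs the largest excess under camptothecin with certain counts was that of SPNCRNA.175, with 23.7 and 20.2 CPM with camptothecin, 2.62 and 2.81 CPM with phleomycin and 0.802 and 1.002 CPM untreated (log2 3.01 ± 0.17, adjusted p = 5.88e-25). SPNCRNA.1378, covered for 67.6 % by other features, had 186.2 and 185.5, 36.5 and 34.9 and 11.1 and 10.2 CPM (log2 2.38 ± 0.048), and SPNCRNA.894 had 153 and 151, 23.4 and 25.03 and 20.5 and 19.7 CPM (log2 2.65 ± 0.055). SPNCRNA.894 was near its untreated level with phleomycin, whereas the other 2 rose with both agents. SPNCRNA.953 had means of 63.2, 13.8 and 27.5 CPM (log2 2.20 ± 0.070). At the phleomycin end SPNCRNA.1617 had 0.911 and 0.863 CPM with camptothecin, 15.4 and 15.5 CPM with phleomycin and 1.86 and 2.05 CPM untreated (log2 -4.11 ± 0.17, adjusted p = 1.18e-31). SPNCRNA.1255 (-2.51 ± 0.16) and SPNCRNA.1691 (-2.44 ± 0.18) were close to their untreated levels with camptothecin, at means of 2.28 and 2.12 CPM, and reached 13.2 and 11.5 CPM with phleomycin. The antisense RNA cti6-antisense-1 (2.98 and 16.1 CPM, -2.42 ± 0.16) is uncertain, since reads of its sense partner cannot be told apart without a strand.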

How the data were processed

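RNA-seq of total RNA (TRIzol, Illumina libraries, per the labels) was deposited by the authors as 1 table of raw read counts per feature and library, with no scaling. HISAT2 and StringTie are named in the submitters' processing notes, without versions. The sources used here do not give the build, annotation, strand setting or counter. No coordinates or sequences are printed for this reason. Symbols, products, overlaps and near-identical copies of the 6661 IDs came from assembly ASM294v3, which the authors do not name (blastn 2.17.0+, 95 % identity over 50 % of the length or more); 110 IDs found no match.

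The deposited counts went through filterByExpr and TMM scaling (factors 0.944 to 1.09) into edgeR's quasi-likelihood fit (edgeR 4.0.16, R 4.3.3), with the 5 groups as the design. It left 5 residual degrees of freedom, and variation beyond counting noise was 2.21 %, the square root of the common dispersion. Reads carry no molecular identifiers, so counting error at this depth is the least error they can have. The contrast was camptothecin minus phleomycin, two-sided, Benjamini-Hochberg adjusted over 5734 features, with a threshold of 0.05 and a second count at 2-fold. SEs are the absolute log2 fold change over the square root of F and can be too small for features with few reads. The code was tested on simulated data.

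Named features passed the threshold, did not overlap between the agents, had 10 CPM or more in the higher group and were neither covered nor copied: the 12 protein-coding genes and 4 non-coding RNAs at each end. Added were up to 4 members of each of 35 lists and a fixed set of target, repair and checkpoint genes, of which ctp1 fell below the filter and 1 gene is not reported here. Members and lists were chosen with earlier results of these data known. List members that ASM294v3 annotates as another gene than intended were removed, and lists are described by counts and medians with no test. Further members, named beside these as examples, were chosen after their values were seen. Libraries with the same replicate number did not deviate together (correlation of replicate differences between the agents 0.037, range over groups -0.053 to 0.037), so no block was used in the reported fit. Alternatives were DESeq2 1.42.0 size factors and Wald test, library totals alone, limma 3.58.1 voom with quantile normalization, no filter, the 4 libraries alone, a replicate block, each library left out, glmTreat at 1.5-fold, the removal of covered or copied features, and a split by level added after seeing the data.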

Additional observations from a re-analysis of the deposited data

How the results depend on the processing

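The counts of features higher with camptothecin (2332) and with phleomycin (2258) stayed within 1.5 times under every alternative scaling, filter, test and sample set tried, from 1970 to 2364 and from 2086 to 2622. With the 4 libraries each left out in turn they ran from 2191 to 2263 and from 2086 to 2122, and the 2-fold counts from 219 to 243 and from 602 to 625. The 2-fold counts moved in 5 cases. Quantile normalization gave 359 higher with camptothecin and 407 with phleomycin in place of 226 and 636. Testing against 1.5-fold with glmTreat gave 529 with camptothecin, and removing covered or copied features left 401 with phleomycin. Keeping features of 10 CPM or more over the 10 libraries, a limit chosen after seeing the data, left 210 with phleomycin and 177 with camptothecin. The cause of the shift under quantile normalization was not tested. The other cases used fewer features or another threshold. At 10 CPM or more the count fell further on the phleomycin side than on the camptothecin side, and the cause of this was not tested.

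The labels number the libraries of a group and do not say whether same-numbered ones were paired. The fit with a replicate block gave 2302 and 2220 features higher with camptothecin and with phleomycin, 226 and 633 of them by 2-fold. Of the named genes it ended only the call of tdp1. With the 4 libraries alone and the block the counts were 2268 and 2215. Against the reported log2 fold changes, 3 named genes changed sign under quantile normalization: pap1 (-0.0574), rad50 (-0.1169) and SPMIT.05 of the mitochondrial genome (-0.1201). Library totals alone moved the median of all features from -0.0011 to -0.095 and ended the calls of tdp1, cds1, pap1 and SPMIT.05. Depth limits the low features most, where 1 CPM is about 40 reads in a library.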

Other observations

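Phosphate, nitrogen and surface genes held further differences. The acid phosphatase gene pho1 had 29.8 and 29.7 CPM with camptothecin, 209.97 and 205 CPM with phleomycin and 40.3 and 41.6 CPM untreated (log2 -2.80 ± 0.042), and the phosphate transporter gene pho84 followed it (-0.66 ± 0.049); other features cover 91.3 % and 89.0 % of them, so both are uncertain. The thiamine regulator gene thi5, at 48.9 and 48.6, 93.6 and 87.3 and 65.1 and 62.1 CPM, was higher with phleomycin (-0.89 ± 0.047). Of 15 tested phosphate and thiamine genes 6 were higher with each agent and 3 did not pass. Among 26 tested genes of amino acid, peptide and nitrogen uptake, 10 were higher with camptothecin and 14 with phleomycin, median -0.21. The peptide transporter gene ptr2 had 34.3 and 39.1 CPM with camptothecin, 98.05 and 92.2 CPM with phleomycin and 226 and 221 CPM untreated (log2 -1.38 ± 0.044), so both agents lay below untreated cells, camptothecin furthest. The lifespan factor gene ecl1 had 31.8 and 28.7, 72.99 and 72.5 and 22.05 and 21.2 CPM (log2 -1.26 ± 0.054) and rose most with phleomycin. Of 15 tested flocculin and adhesion genes 7 were higher with camptothecin and 8 with phleomycin, among the latter pfl4 (-1.14 ± 0.060) and pfl9 (-1.76 ± 0.15). Of 29 tested purine and pyrimidine genes 16 were higher with camptothecin and 11 with phleomycin, with urg1 of uracil use (1.26 ± 0.028) and the salvage gene apt1 (0.92 ± 0.033) higher with camptothecin. The background for the lists of this paragraph is the share over all features, 40.7 % with camptothecin and 39.4 % with phleomycin.

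Telomere and heterochromatin genes were called in both directions, where 40.7 % of all features were higher with camptothecin and 39.4 % with phleomycin. The heterochromatin list did not lean clearly to 1 agent, while the 2-fold differences of the telomere list were all on the phleomycin side. At telomeres, where the shelterin complex caps chromosome ends, the single-strand binding gene pot1 had 60.4 and 57.4 CPM with camptothecin, 141 and 135 CPM with phleomycin and 38.5 and 40.2 CPM untreated (log2 -1.23 ± 0.042, adjusted p = 6.94e-36). It rose with both agents and furthest with phleomycin. Its partner gene rap1 was also higher with phleomycin (-0.33 ± 0.053), and poz1 (0.33 ± 0.065) and bqt3 (0.76 ± 0.037) were higher with camptothecin. Of 18 tested telomere genes 7 were higher with camptothecin and 9 with phleomycin, 0 and 4 of them by 2-fold or more. The 2-fold shares over all features were 3.94 % and 11.1 %. Of 32 tested heterochromatin and RNAi genes 12 were higher with camptothecin and 13 with phleomycin. The RITS complex gene tas3 (47.4 and 44.8 against 99.9 and 97.5 CPM, -1.09 ± 0.047) and the silencing complex gene clr2 (-0.79 ± 0.059) were higher with phleomycin, and epe1, whose product opposes heterochromatin (133 and 125 against 76.6 and 78.4 CPM, 0.74 ± 0.041), and mlo3 (1.19 ± 0.026) with camptothecin. Of 41 tested genes of mitosis and the cyclin-dependent kinase, 15 were higher with camptothecin and 19 with phleomycin, with the tubulin gene atb2 at 295 and 302 CPM with camptothecin, 485 and 495 CPM with phleomycin and 235 and 229 CPM untreated (-0.71 ± 0.022). Of 10 tested features of the mitochondrial genome, 2 were higher with each agent and 6 did not pass. One of 3 tested Tf2 retrotransposon features, Tf2-11, was higher with phleomycin (8.24 and 7.13 against 28.5 and 27.5 CPM, -1.86 ± 0.097), but its near-identical copies make the value uncertain.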
